A study of Mus musculus with 33 samples.

Results

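Septic preNeu, the dividing neutrophil precursors of mouse bone marrow during sepsis, were set against control transitional pre-monocytes (TpMo), a precursor on the monocyte path. The members were the 3 libraries labelled as preNeu from day 3 of mid-grade sepsis and the 3 libraries labelled as TpMo, 6 of the 33 libraries in the series. Septic preNeu came from mice 3 days after mid-grade cecal ligation and puncture (CLP), in which gut contents leak from a tied and pierced cecum into the abdomen. The 3 control preNeu libraries, used to place the septic ones, and the TpMo libraries came from control mice that the design text calls wild type, with no operation named. Strain, age and sex were not given in the sources used here, nor was the number of mice behind a library, so the spread between libraries is what the p-values measure. TpMo from septic mice were not analysed here, so in the direct comparison lineage and sepsis cannot be told apart. The libraries were full-length cDNA of sorted cells, sequenced in 11 groups of 3.

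Granulocyte-monocyte progenitors (GMP) of the marrow give rise to both neutrophils and monocytes. On the neutrophil side proNeu1 and proNeu2 lead to preNeu, a stage that still divides and fills the secretory granules in waves: azurophil granules with myeloperoxidase and serine proteases first, then specific granules with lactoferrin and cathelicidin. On the monocyte side the common monocyte progenitor (cMoP) and TpMo lead to Ly6C-high monocytes, which depend on the factors IRF8 and KLF4 and carry the receptors for CSF1 and CCL2. CLP draws mature neutrophils out of the marrow and sets off emergency production of new ones, and the question here was how near septic preNeu came to the monocyte path.

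The count table held 54752 features, and the 4184 on chromosomes X and Y were left out. Total counts ran from 5.83 to 24.02 megacounts in septic preNeu, from 5.52 to 22.68 megacounts in control preNeu and from 17.24 to 21.67 megacounts in TpMo, and 17619 genes passed the filter on low counts. Levels are given as CPM, a gene's counts per megacount of its library after scaling by trimmed mean of M-values, and values for each group are listed in the order of its replicates 1 to 3. Xist stood at 153 to 192 CPM in septic preNeu, 313 to 375 CPM in control preNeu and 0.372 to 0.696 CPM in TpMo, while Ddx3y, on Y, stood at 0 to 0.167, 0.0882 to 0.725 and 74.5 to 92.9 CPM, so that sex and lineage cannot be told apart either. The third libraries of septic and of control preNeu were the shallow ones, at 5.83 and 5.52 megacounts, and control preNeu replicate 3 also carried the highest control levels of many genes named here. In bulk libraries, fewer cells of a type and less RNA per cell cannot be told apart.

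The start sites of 4 genes on which the comparison turned are shown first: Ltf and Ngp, specific granule genes far higher in septic preNeu, F13a1, a monocyte gene far lower there, and Vcan, a monocyte gene at like levels in septic preNeu and TpMo. Each run is the sequence before the RefSeq start (build GRCm38.p6), 5′ to 3′ on the gene's own strand, without bases that the annotation places in an exon. Ltf is at chr9:111019042-111019270 (plus strand), Ngp at chr9:110419558-110419746 (plus strand), F13a1 at chr13:37050245-37050494 (minus strand, the first of 2 entries) and Vcan at chr13:89742513-89742762 (minus strand). Capitals mark matches to TTNNGNAA or its reverse TTNCNNAA, the core letters of sites bound by C/EBP factors, a family that includes C/EBPε of the specific granule stage.
Ltf: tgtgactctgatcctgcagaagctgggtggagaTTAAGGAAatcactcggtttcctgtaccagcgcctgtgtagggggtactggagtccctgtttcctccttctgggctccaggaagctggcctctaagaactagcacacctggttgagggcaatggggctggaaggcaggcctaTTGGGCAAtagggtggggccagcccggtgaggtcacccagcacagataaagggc
Ngp: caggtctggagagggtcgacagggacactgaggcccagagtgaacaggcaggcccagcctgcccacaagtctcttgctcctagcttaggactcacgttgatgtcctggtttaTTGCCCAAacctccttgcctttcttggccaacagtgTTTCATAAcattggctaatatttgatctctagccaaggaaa
F13a1: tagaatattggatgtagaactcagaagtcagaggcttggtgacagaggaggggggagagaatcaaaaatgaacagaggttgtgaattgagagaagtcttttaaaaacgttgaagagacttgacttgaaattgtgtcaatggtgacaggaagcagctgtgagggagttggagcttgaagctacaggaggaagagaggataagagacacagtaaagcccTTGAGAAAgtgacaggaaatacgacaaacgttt
Vcan: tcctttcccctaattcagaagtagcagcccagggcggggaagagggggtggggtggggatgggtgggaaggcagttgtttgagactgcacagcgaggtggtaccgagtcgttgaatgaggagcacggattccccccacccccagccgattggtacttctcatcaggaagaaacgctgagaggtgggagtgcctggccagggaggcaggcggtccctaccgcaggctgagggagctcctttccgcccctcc
Ltf held 2 such matches, at 217 and 75 bases before the start, Ngp held 2 in the printed run, F13a1 held 1 at 33 bases, and Vcan held 0. Either form was present in 36.8% of the 32851 promoters of the RefSeq table over the same 250 bases, so a match is common and is a description only. The PU box GAGGAA or its reverse TTCCTC, the core of PU.1 sites, was in the windows of Ltf and F13a1, beside 23.3% of all promoters. Fn1 was not shown for want of an entry.

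Septic preNeu libraries lay nearer to TpMo than control preNeu libraries did, but they lay nearer still to proNeu2 and preNeu of septic and control mice. The measure was the root mean square difference of log2 CPM over the tested genes, between each library and each library of the other group. The septic libraries lay 1.77, 1.75 and 1.89 from TpMo, against 2.11, 1.95 and 1.94 for the control preNeu libraries. The 3 septic values were all below the 3 control values. Their means were 1.80 ± 0.0758 and 2.00 ± 0.095 (SD, n = 3 each), a difference of -0.195 with a two-sided exact permutation p of 0.10, the smallest that 3 libraries against 3 allow.

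Control preNeu libraries differed more among themselves, by 1.33 on average, than septic preNeu libraries, by 1.12, and the part of that spread in the distances was not tested. Other septic stages also lay nearer to TpMo by their means, GMP at 1.90, proNeu1 at 1.89 and proNeu2 at 1.91, against 1.99, 1.95 and 2.03 for their controls, differences that were not tested.

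On the same scale septic preNeu libraries lay 1.40 from septic proNeu2, 1.46 from control preNeu and 1.68 from control proNeu2. Septic proNeu1 lay at 1.54 and septic GMP at 1.72. The monocyte path came after these, with cMoP at 1.79, TpMo at 1.80 and Ly6C-high monocytes at 2.18. Control proNeu1, at 1.81, lay about as far from septic preNeu as TpMo did, and control GMP lay at 2.03. Control preNeu lay 1.95 from cMoP, 2.00 from TpMo and 2.38 from Ly6C-high monocytes. TpMo itself lay 1.38 from cMoP and 1.59 from Ly6C-high monocytes. Thinning every library to the same depth left the order, with a difference of -0.162 between septic and control preNeu in their distance to TpMo.

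**Figure D1:**
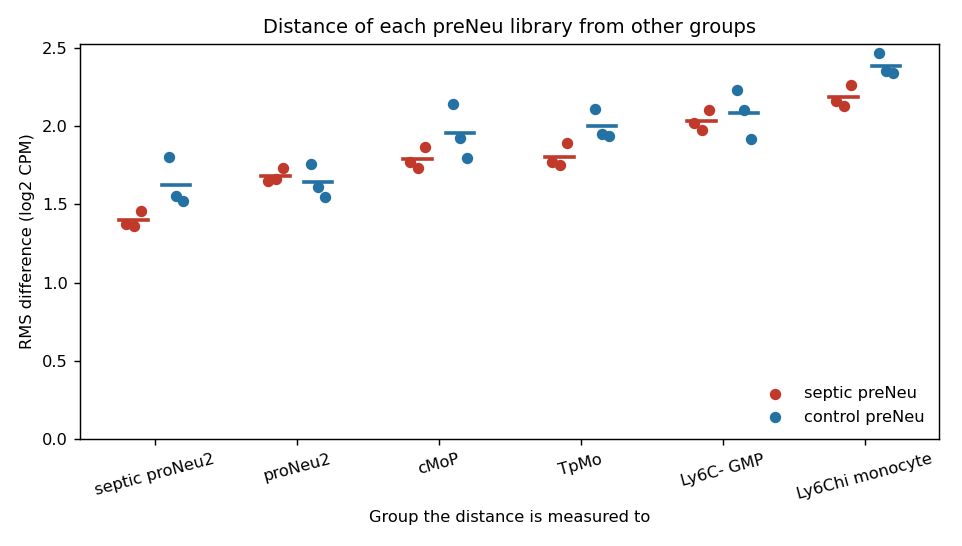
Root mean square log2 CPM distance (vertical axis) of each septic preNeu library (left in each pair) and each control preNeu library to 6 other groups; points are libraries and bars are means over the 3. Septic points lie below control points for TpMo, 1.75 to 1.89 against 1.94 to 2.11, and septic proNeu2 is the group nearest to septic preNeu among the 6.

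Between septic preNeu and TpMo 4280 of 17619 genes, 24.3%, passed edgeR's quasi-likelihood test at a Benjamini-Hochberg adjusted p under 0.05. Of these 2297 (13%) were higher in septic preNeu and 1983 (11.3%) lower. By more than 2-fold 2782 (15.8%) differed, 1455 (8.26%) higher and 1327 (7.53%) lower. A further 4055 genes (23%) did not pass and had a 95% interval of the fold change within 2-fold either way, while 9284 (52.7%) did not pass and had wider intervals, which leaves their nearness undecided. Between control preNeu and TpMo, a comparison that shares the TpMo libraries, 4937 genes (28%) passed, 2438 (13.8%) higher and 2499 (14.2%) lower. Of these 3334 (18.9%) differed by more than 2-fold, 1596 (9.06%) higher and 1738 (9.86%) lower, and 3617 genes (20.5%) that did not pass had intervals within 2-fold. The median absolute log2 fold change over all genes was 0.69 for septic preNeu and 0.76 for control preNeu. Whether the gap to TpMo differed between septic and control preNeu is the direct test of one against the other, which 2043 genes (11.6%) passed, 1288 (7.31%) higher in septic preNeu and 755 (4.29%) lower. By more than 2-fold 987 (5.6%) differed there, 672 (3.81%) higher and 315 (1.79%) lower.

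By the number of genes and by medians, though not by summed level, the gap on the monocyte side was narrower in septic preNeu. Monocyte-path genes were taken as those more than 2-fold higher in TpMo than in GMP and than in proNeu2, from libraries other than preNeu. Of 1277 such genes 263 (20.6%) were higher in septic than in control preNeu and 54 (4.23%) lower, beside 7.31% and 4.29% over all genes, with a median log2 difference of 0.25. Against TpMo, whose libraries also defined the list, 648 were lower in septic preNeu, with a median of -1.04, and 722 in control preNeu, with a median of -1.33. The rest did not pass, 573 in septic and 512 in control preNeu, or were higher than TpMo, 56 and 43. The list thus also held genes that did not set control preNeu below TpMo. The summed levels of the 1277 genes overlapped, at 190400, 188200 and 168000 CPM in septic preNeu and 168700, 224500 and 161600 CPM in control preNeu. In TpMo the sums were 276900, 282100 and 287300 CPM. Of 295 neutrophil-path genes, chosen in mirror image, 279 were higher than TpMo in septic preNeu and 279 in control preNeu, with medians of 3.11 and 3.43. Septic over control preNeu, 26 (8.81%) of these were higher and 45 (15.3%) lower.

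Monocyte genes, taken as a list of 28 surface receptors, lysosomal and secreted proteins, stayed far below TpMo in septic preNeu yet stood above control preNeu. Against TpMo 27 were lower, beside 11.3% over all genes, and Vcan did not pass. The median log2 fold change was -2.96 beside -0.02 over all genes. In control preNeu all 28 were lower, with a median of -5.77, or -5.54 with S100a4, at 0 in all of them, at its bound. Septic over control preNeu, 21 were higher and 0 lower, beside 7.31% and 4.29% over all genes, with a median of 2.52 beside 0. Over the list the septic level was a median 12.8% of the TpMo level, against 2% for control preNeu, and 15 genes lay between 5 and 20%. Their summed level was 6485, 8316 and 5935 CPM in septic preNeu, 2806, 3898 and 3764 CPM in control preNeu and 40410, 40980 and 40900 CPM in TpMo. Without any one library the count below TpMo was 22 to 25 and the count above control preNeu 18 to 23. Septic preNeu replicate 2 was the highest septic library for 23 of the 28.

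Fn1, fibronectin, had 279, 801 and 295 CPM in septic preNeu, 2.64, 4.61 and 6.72 CPM in control preNeu and 4351, 4511 and 4269 CPM in TpMo. F13a1, the A chain of coagulation factor XIII, had 902, 1501 and 876 CPM in septic preNeu, 39, 56.6 and 212 CPM in control preNeu and 6488, 6590 and 6461 CPM in TpMo. The groups did not overlap for either gene, with septic preNeu between the other two. Fn1 was lower than TpMo by a log2 fold change of -3.25 ± 0.67 (SE; adjusted p = 0.000482) and higher than control preNeu by 6.74 ± 0.84 (adjusted p = 2.33e-06). For F13a1, whose start site appears above with 1 capital match, the changes were -2.57 ± 0.37 (adjusted p = 2.98e-06) and 3.44 ± 0.38 (adjusted p = 3.74e-07).

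The receptors that bind the monocyte growth and homing signals followed. Ccr2, the receptor for CCL2 that brings monocytes out of the marrow, had 154, 171 and 99.5 CPM in septic preNeu, 3.85, 4.84 and 14.2 CPM in control preNeu and 1368, 1425 and 1432 CPM in TpMo. Csf1r, the receptor for CSF1, had 78.6, 123 and 66.6 CPM in septic preNeu, 6.37, 9.57 and 31.7 CPM in control preNeu and 1014, 995 and 1035 CPM in TpMo. Both stood at 8.81 to 10.1% of TpMo in septic preNeu, with no overlap between groups. Ccr2 was lower than TpMo by -3.31 ± 0.42 (adjusted p = 4.91e-07) and higher than control preNeu by 4.41 ± 0.48 (adjusted p = 2.18e-07), and Csf1r by -3.50 ± 0.47 (adjusted p = 1.1e-06) and 2.63 ± 0.48 (adjusted p = 0.000371). Cx3cr1, the fractalkine receptor, had 12.5, 12.4 and 4.47 CPM in septic preNeu, 0.481, 2.1 and 5.7 CPM in control preNeu and 89.1, 105 and 102 CPM in TpMo. Its difference from control preNeu, 2.23 ± 0.80, passed without control preNeu replicate 3 (adjusted p = 0.0267) but not with it (adjusted p = 0.0697).

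Other members differed in how far they had gone. Ly6c2, which encodes the Ly6C antigen and has close paralogs that share reads, had 978, 914 and 942 CPM in septic preNeu, 690, 1209 and 1346 CPM in control preNeu and 2831, 2871 and 3195 CPM in TpMo. Septic and control preNeu overlapped there, and septic preNeu was lower than TpMo by -1.65 ± 0.19 (adjusted p = 8.99e-08). Tgfbi, an extracellular matrix protein, and Emb, an adhesion molecule of the immunoglobulin family, reached 35.2% and 36.7% of TpMo in septic preNeu, against 6.13% and 10.1% in control preNeu. At the other end Ly86, partner of the receptor RP105, had 7.48, 7.54 and 7.58 CPM in septic preNeu, 1.44, 0.934 and 8.55 CPM in control preNeu and 178, 185 and 193 CPM in TpMo. Septic preNeu stood at 4.06% of TpMo for Ly86, which did not pass against control preNeu (adjusted p = 0.096) but did without control preNeu replicate 3 (adjusted p = 0.000678). Psap, the saposin precursor of the lysosome, had 1247, 1450 and 1024 CPM in septic preNeu, 853, 943 and 722 CPM in control preNeu and 11320, 12120 and 11650 CPM in TpMo. S100a4 was at 0 in all 6 preNeu libraries and had at most 1.55 CPM in TpMo, a difference whose call (adjusted p = 0.0318) was lost without single libraries, with adjusted p up to 0.0971. Cd14, the co-receptor for lipopolysaccharide, and Clec4a1 were lower than TpMo at adjusted p = 0.039 and 0.0418, calls that were lost without single libraries, with adjusted p up to 0.216 and 0.138.

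**Figure D2:**
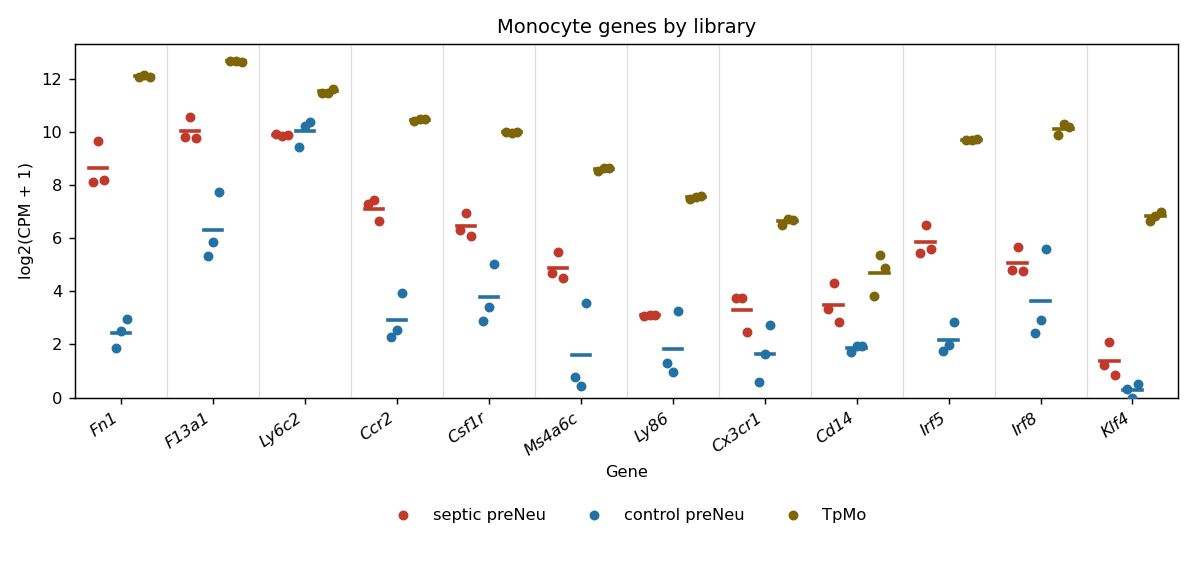
Level as log2(CPM + 1) of 12 monocyte genes in each library of septic preNeu (left), control preNeu (middle) and TpMo (right); each point is a library. For Fn1, F13a1, Ccr2, Csf1r and Irf5 the septic points lie between control preNeu and TpMo, while Ly6c2 of septic and control preNeu overlaps and Irf8 and Klf4 of septic preNeu lie far below TpMo.

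The monocyte transcription factors differed from one another. Of 16 tested, 5 were lower than TpMo, 2 higher and 9 did not pass, beside 11.3% lower and 13% higher over all genes. Against control preNeu 4 were higher and 0 lower, beside 7.31% and 4.29% over all genes. The higher count was 2 without septic preNeu replicate 2, control preNeu replicate 1 or control preNeu replicate 2. Irf8, which directs GMP toward monocytes, had 26.9, 50 and 26.2 CPM in septic preNeu, 4.33, 6.53 and 47.6 CPM in control preNeu and 955, 1252 and 1178 CPM in TpMo. Septic and control preNeu overlapped through control preNeu replicate 3, without which the difference of 2.68 passed (adjusted p = 0.00237) and with which it did not (1.01, adjusted p = 0.345). Against TpMo, Irf8 was lower by -5.02 ± 0.67 (adjusted p = 1.14e-06). Klf4, which Ly6C-high monocytes require, had 1.32, 3.29 and 0.777 CPM in septic preNeu, 0.24, 0 and 0.407 CPM in control preNeu and 100, 114 and 127 CPM in TpMo. That is 1.58% of TpMo in septic preNeu, a log2 fold change of -5.86 ± 0.75 (adjusted p = 5.6e-07). Its difference from control preNeu, 3.55 ± 1.03 (adjusted p = 0.0219), was lost without septic preNeu replicate 2 or control preNeu replicate 1 or 2, with adjusted p up to 0.16. Irf5, a factor of inflammatory cytokine genes, had 42.6, 90.5 and 47 CPM in septic preNeu, 2.34, 2.92 and 6.1 CPM in control preNeu and 823, 827 and 855 CPM in TpMo, with no overlap. Zeb2 and Mef2c were lower than TpMo, by -3.27 and -2.22. Against control preNeu Zeb2 did not pass (0.68, adjusted p = 0.15) but did without control preNeu replicate 3 (1.43, adjusted p = 5.62e-05), and Mef2c did not (-0.46, adjusted p = 0.0844) but did without septic preNeu replicate 1 (-0.59, adjusted p = 0.0475).

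Id2, an inhibitor of E proteins, and Bhlhe40, a repressor, were the 2 members that were higher than TpMo. Id2 had 264, 276 and 237 CPM in septic preNeu, 211, 210 and 181 CPM in control preNeu and 76.7, 77.9 and 83.1 CPM in TpMo, a log2 fold change of 1.71 ± 0.26 over TpMo (adjusted p = 9.8e-06). Bhlhe40 was higher by 3.75 ± 0.52. Neither passed between septic and control preNeu.

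Specific granule genes marked the neutrophil side of the gap. Of 15 members 14 were higher in septic preNeu than in TpMo, with a median log2 fold change of 8.08, and 14 in control preNeu, with a median of 9.69, or 8.63 with the 2 genes at 0 in TpMo at their bounds. Over all genes 13% were higher than TpMo, and 4.29% were lower and 7.31% higher than control preNeu. Against control preNeu 6 members were lower, 2 higher and 7 did not pass, and the count of lower members was 3 without any one of the libraries other than control preNeu replicate 3. Their summed level was 54870, 42910 and 43700 CPM in septic preNeu, 138000, 119800 and 84520 CPM in control preNeu and 2197, 2210 and 2172 CPM in TpMo.

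Ltf, lactoferrin, an iron-binding protein of specific granules, had 16000, 10230 and 9770 CPM in septic preNeu, 47240, 47200 and 29900 CPM in control preNeu and 12.2, 14.4 and 21.2 CPM in TpMo. Camp, the cathelicidin antimicrobial peptide, had 1755, 1355 and 1649 CPM in septic preNeu, 5416, 7282 and 4768 CPM in control preNeu and 2.06, 1.26 and 3.18 CPM in TpMo. Septic preNeu stood below control preNeu and far above TpMo for both, with no overlap. Ltf was higher than TpMo by 9.55 ± 0.60 (adjusted p = 5.42e-13) and lower than control preNeu by -1.79 ± 0.42 (adjusted p = 0.00481), and Camp by 9.51 ± 0.55 (adjusted p = 1.23e-13) and -1.88 ± 0.38 (adjusted p = 0.00124). Ngp, a cathelin-like granule protein, was the most abundant, with 17610, 14160 and 14980 CPM in septic preNeu, 56680, 39490 and 30780 CPM in control preNeu and 11.7, 7.5 and 26.6 CPM in TpMo. Its difference from control preNeu, -1.44 ± 0.48 (adjusted p = 0.0497), was lost without any one of the libraries other than control preNeu replicate 3, with adjusted p up to 0.242.

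Members of this list did not move as a block. Lcn2, the siderophore-binding lipocalin, had 3481, 2895 and 3688 CPM in septic preNeu, 1306, 3770 and 2810 CPM in control preNeu and 27.8, 26.9 and 31.3 CPM in TpMo, so that septic and control preNeu overlapped. Mmp8, neutrophil collagenase, had 273, 582 and 199 CPM in septic preNeu, 42.7, 28 and 24 CPM in control preNeu and 314, 315 and 252 CPM in TpMo. It was the 1 member that did not pass against TpMo (0.26 ± 0.60, adjusted p = 0.821), and it was higher than control preNeu by 3.47 ± 0.66 (adjusted p = 0.000628). Hp, haptoglobin, was higher than TpMo by 1.71 and than control preNeu by 0.54 (adjusted p = 0.00159). Fcnb, a ficolin, was higher than TpMo by 2.77 and lower than control preNeu by -1.37 (adjusted p = 0.000279). Chil1, a chitinase-like protein, had 743, 536 and 603 CPM in septic preNeu, 1896, 1394 and 920 CPM in control preNeu and 0.363, 0.194 and 0.391 CPM in TpMo.

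Azurophil granule genes were mostly higher in septic preNeu than in control preNeu and TpMo. Of 8 tested 7 were higher than TpMo, 1 lower, and 6 were higher than control preNeu, with medians of 3.21 and 0.97. Over all genes 13% were higher than TpMo, 11.3% lower, and 7.31% were higher than control preNeu. The summed level was 27840, 28390 and 26900 CPM in septic preNeu, 13170, 15180 and 24960 CPM in control preNeu and 4065, 4063 and 4021 CPM in TpMo. Mpo, myeloperoxidase, had 14520, 15210 and 12880 CPM in septic preNeu, 7156, 8119 and 14480 CPM in control preNeu and 1302, 1307 and 1334 CPM in TpMo. Septic and control preNeu overlapped through control preNeu replicate 3. The difference, 0.52 ± 0.15 (adjusted p = 0.0251), was lost without septic preNeu replicate 1 or 2 or control preNeu replicate 1 or 2, with adjusted p up to 0.17, while that over TpMo was 3.43 ± 0.17 (adjusted p = 3.29e-15). Prtn3, proteinase 3, had 1628, 1481 and 1847 CPM in septic preNeu, 353, 592 and 1106 CPM in control preNeu and 288, 307 and 287 CPM in TpMo. Ctsg, cathepsin G, had 1119, 1261 and 1430 CPM in septic preNeu, 116, 181 and 686 CPM in control preNeu and 197, 234 and 231 CPM in TpMo. For both proteases every septic preNeu library stood above every library of control preNeu and TpMo. Among all 24 libraries off the monocyte path Prtn3 reached 3110 CPM and Mpo 72700 CPM, above every septic preNeu library. Prtn3 was higher by 2.49 than TpMo and by 1.28 than control preNeu (adjusted p = 1.2e-07 and 0.00258), and Ctsg by 2.53 and 1.96 (adjusted p = 4.4e-06 and 0.000431). With the compared libraries alone the differences from control preNeu did not pass (adjusted p = 0.0514 for Prtn3 and 0.0556 for Ctsg). Ctsc, cathepsin C, which activates these proteases, was the exception. It had 346, 404 and 242 CPM in septic preNeu, 23.6, 18.2 and 44.4 CPM in control preNeu and 1388, 1225 and 1170 CPM in TpMo, and was thus lower than TpMo by -1.93 ± 0.23 and higher than control preNeu by 3.57 ± 0.25 (adjusted p = 1.33e-07 and 8.12e-11).

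**Figure D3:**
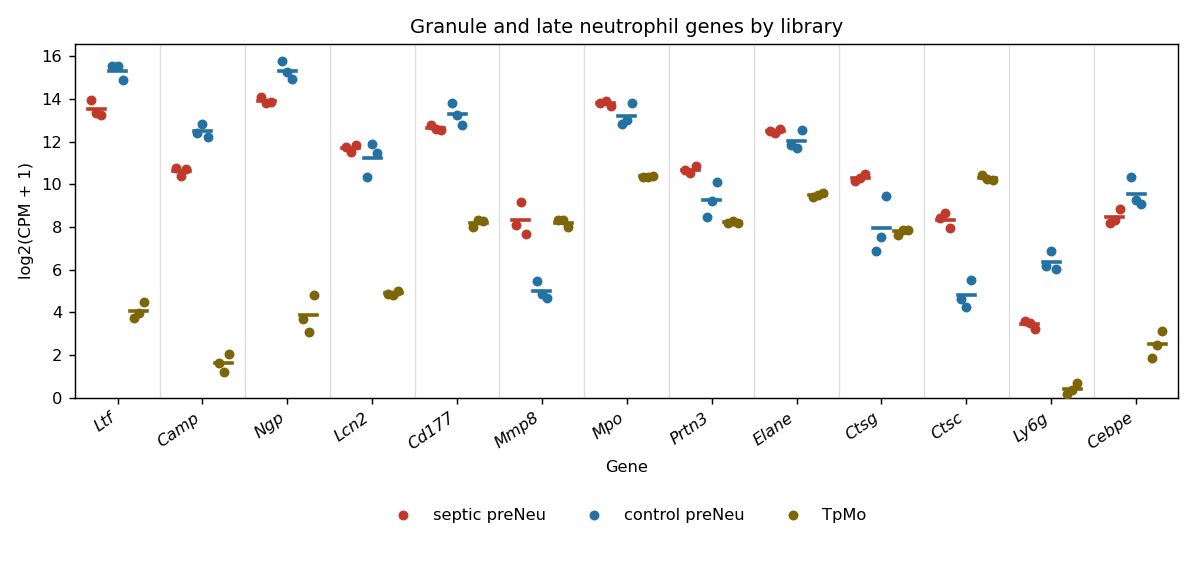
Level as log2(CPM + 1) of 13 neutrophil genes, mostly of granules, in each library of septic preNeu (left), control preNeu (middle) and TpMo (right); each point is a library. Ltf, Camp and Ly6g lie lower in septic than in control preNeu and Prtn3, Ctsg and Mmp8 higher, while Ctsc is highest in TpMo.

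Genes of later neutrophils were largely on the neutrophil side too. Of 24 members 21 were higher than TpMo, 2 lower and 1 did not pass, beside 13% higher and 11.3% lower over all genes, with a median of 4.99. Against control preNeu 5 were higher and 2 lower, beside 7.31% and 4.29% over all genes. Without septic preNeu replicate 2 or control preNeu replicate 1, 3 were higher. S100a8, a subunit of calprotectin, had 3421, 3398 and 3258 CPM in septic preNeu, 3412, 8746 and 4427 CPM in control preNeu and 46.9, 42 and 37.9 CPM in TpMo. Cxcr2, the receptor that draws neutrophils out of the marrow, had 217, 260.4 and 210 CPM in septic preNeu, 88.7, 141 and 98.1 CPM in control preNeu and 0.604, 0.194 and 2.15 CPM in TpMo. Both stood far above TpMo and did not pass against control preNeu. Ifitm6, a member of the interferon-induced transmembrane family, was higher than TpMo by 4.35 and than control preNeu by 1.91 (adjusted p = 0.00126). Ly6g, the surface antigen of mature mouse neutrophils, had 11.2, 10.3 and 8.16 CPM in septic preNeu, 69.9, 117 and 63.7 CPM in control preNeu and 0.121, 0.29 and 0.586 CPM in TpMo. Its difference from control preNeu, -3.07 ± 0.97 (adjusted p = 0.0377), was lost without any one of the libraries other than control preNeu replicate 3, with adjusted p up to 0.156. Ccl6, a chemokine, and Slpi, an inhibitor of elastase, were the 2 members lower than TpMo.

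Of 7 neutrophil transcription factors 3 were higher than TpMo, 2 lower and 2 did not pass, beside 13% higher and 11.3% lower over all genes. Against control preNeu 1 was lower, beside 4.29% over all genes. Cebpe, which drives the specific granule stage, had 289, 324 and 455 CPM in septic preNeu, 1285, 604 and 537 CPM in control preNeu and 2.66, 4.55 and 7.72 CPM in TpMo. It was higher than TpMo by 6.14 ± 0.54 (adjusted p = 5.44e-10). Against control preNeu its -1.19 ± 0.43 passed without control preNeu replicate 3 (adjusted p = 0.0429) and not with it (adjusted p = 0.0704). Gfi1, a repressor needed for neutrophil fate, had 32.5, 56.6 and 43.3 CPM in septic preNeu, 25.3, 39.4 and 32.6 CPM in control preNeu and 0.121, 0 and 0 CPM in TpMo. Spi1, which encodes PU.1, had 818, 904 and 901 CPM in septic preNeu, 695, 723 and 589 CPM in control preNeu and 112, 167 and 493 CPM in TpMo, where TpMo replicate 3 stood apart. It was higher than TpMo by 1.76 ± 0.43 (adjusted p = 0.00249). Cebpa, a factor of the GMP stage, had 8.34, 7.43 and 11.65 CPM in septic preNeu, 6.49, 13.5 and 16.9 CPM in control preNeu and 15.8, 21.4 and 19.25 CPM in TpMo, lower than TpMo by -1.07 ± 0.30 (adjusted p = 0.00787, or 0.0534 without septic preNeu replicate 2). Runx1 was lower than TpMo by -0.64 (adjusted p = 0.0187, up to 0.0912 without single libraries) and than control preNeu by -0.64 (adjusted p = 0.0368, up to 0.374 without single libraries). Of the oxidase subunits that make superoxide, Ncf1, Ncf4, Rac2 and Cyba were higher than TpMo, by 2.33, 1.28, 1.29 and 0.46. The call of Cyba (adjusted p = 0.0396) was lost without any one of the libraries other than septic preNeu replicate 2, with adjusted p up to 0.166. Against control preNeu these 4 did not pass.

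Receptors for growth factors and cytokines differed from TpMo in both directions. Of 24 tested 8 were higher than TpMo and 11 lower, beside 13% and 11.3% over all genes. Against control preNeu 9 were higher and 1 lower, beside 7.31% and 4.29% over all genes. Il1r2, the decoy receptor for interleukin 1, had 558, 977 and 605 CPM in septic preNeu, 117, 127 and 108 CPM in control preNeu and 1.09, 4.26 and 1.95 CPM in TpMo. It exceeded TpMo by 8.17 ± 0.63 and control preNeu by 2.60 ± 0.48 (adjusted p = 5.05e-11 and 0.000424). Il4ra, the interleukin 4 receptor chain, had 386, 395 and 363 CPM in septic preNeu, 78.7, 137 and 129.6 CPM in control preNeu and 84.1, 73.5 and 101 CPM in TpMo, so that septic preNeu stood alone above both. Csf2rb, the shared chain of the receptors for GM-CSF and interleukins 3 and 5, did the same, with 1283, 1245 and 1139 CPM in septic preNeu, 385, 491 and 480.2 CPM in control preNeu and 499.8, 445 and 466 CPM in TpMo. Kit, the stem cell factor receptor, had 28.6, 27.7 and 30.3 CPM in septic preNeu, 237, 215 and 245 CPM in control preNeu and 1.33, 0.29 and 0.977 CPM in TpMo. That placed it above TpMo by 5.08 ± 0.27 and below control preNeu by -3.01 ± 0.21 (adjusted p = 1.15e-14 and 7.52e-11). Il6st, the gp130 chain of the interleukin 6 receptor, had 11.6, 12.1 and 10.5 CPM in septic preNeu, 1.08, 0.35 and 4.07 CPM in control preNeu and 309, 294 and 307 CPM in TpMo, a log2 fold change of -4.73 ± 0.49 from TpMo. The interferon receptor chains Ifnar1, Ifnar2 and Ifngr2 were lower than TpMo by -1.04, -1.17 and -0.96 and did not pass against control preNeu.

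Toll-like receptors, with their co-receptors and adaptors, were spread around the TpMo level in septic preNeu. Of 13 tested 4 were higher than TpMo, 4 lower and 5 did not pass, beside 13% higher and 11.3% lower over all genes, with a median of 0.19. In control preNeu 9 were lower and 3 higher, beside 14.2% and 13.8% over all genes, with a median of -2.07. Septic over control preNeu, 6 were higher and 1 lower, beside 7.31% and 4.29%. Tlr2, which recognises bacterial lipopeptides, had 74.9, 108 and 65.5 CPM in septic preNeu, 9.13, 11.7 and 14.2 CPM in control preNeu and 47.1, 63.6 and 73.7 CPM in TpMo. Septic preNeu overlapped with TpMo (0.43 ± 0.23, adjusted p = 0.185) and stood above control preNeu (2.85 ± 0.25, adjusted p = 1.19e-08). Tlr1, its partner, had 18.9, 23.6 and 7.96 CPM in septic preNeu, 2.28, 2.04 and 1.83 CPM in control preNeu and 16.4, 17.2 and 11.1 CPM in TpMo. Tlr4, the lipopolysaccharide receptor, was higher than TpMo by 2.03 ± 0.31 and did not pass against control preNeu. Myd88, the adaptor of these receptors, was higher than both, by 0.98 and 1.03 (adjusted p = 1.14e-06 and 3.51e-06).

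Of 14 receptors for chemoattractants 6 were higher than TpMo, 3 lower and 5 did not pass, beside 13% higher and 11.3% lower over all genes. C5ar1, the C5a receptor, and Ltb4r1, the leukotriene B4 receptor, were higher than TpMo by 5.39 and 1.78. Of 14 adhesion genes 6 were lower than TpMo, 3 higher and 5 did not pass, beside the same shares. Selplg, the ligand of P-selectin, had 377, 385 and 327 CPM in septic preNeu, 219, 225 and 219.8 CPM in control preNeu and 1696, 1728 and 1872 CPM in TpMo. Vcam1 had 55.4, 64.6 and 63.7 CPM in septic preNeu, 229, 366 and 213 CPM in control preNeu and 0.846, 1.16 and 2.15 CPM in TpMo. Both sat between the other groups without overlap, Selplg by -2.28 from TpMo and 0.71 from control preNeu and Vcam1 by 5.44 and -2.14, all passing the test.

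Genes of the secretory pathway were mostly higher in septic preNeu than in control preNeu and TpMo. Of 20 chaperones and folding enzymes of the endoplasmic reticulum 16 were higher than TpMo and 0 lower, with a median of 0.86, while in control preNeu 4 were higher and 4 lower. Over all genes 13% were higher than TpMo and 7.31% higher than control preNeu. Septic over control preNeu, 13 of the 20 were higher and 0 lower, with a median of 0.96. Their sum was 12960, 11520 and 11820 CPM in septic preNeu, 6407, 5303 and 7625 CPM in control preNeu and 6368, 6515 and 6210 CPM in TpMo. Hspa5, the chaperone BiP, had 2399, 2095 and 2293 CPM in septic preNeu, 1057, 683 and 1300 CPM in control preNeu and 888, 975 and 934 CPM in TpMo. Calr, calreticulin, had 656, 608 and 666 CPM in septic preNeu, 97.3, 151 and 384 CPM in control preNeu and 155, 147 and 129 CPM in TpMo. Every septic library exceeded every library of control preNeu and TpMo for both. The level of Calr was higher still in the stage before, with means of 717 CPM in control proNeu2 and 1423 CPM in septic proNeu2. Hspa5 exceeded TpMo by 1.28 ± 0.19 and control preNeu by 1.16 ± 0.19 (adjusted p = 5.16e-06 and 9.78e-05), and Calr by 2.16 ± 0.26 and 1.62 ± 0.25 (adjusted p = 1.42e-07 and 5.96e-05).

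Ribosome biogenesis and oxidative phosphorylation genes were higher in septic than in control preNeu, and few passed against TpMo. Of 22 ribosome biogenesis genes 2 were higher than TpMo, 1 lower and 19 did not pass, with a median of 0.02, and of 20 oxidative phosphorylation genes 4 were higher, 1 lower and 15 did not pass, with a median of 0.07. Over all genes 24.3% passed against TpMo, so the share that did not pass says little about the lists, and it does not show equal levels. In control preNeu 14 and 11 members were lower than TpMo and 0 higher, with medians of -0.63 and -0.45. Septic over control preNeu, 13 and 9 were higher and 0 lower in either list, beside 7.31% higher over all genes. The ribosome count was 8 without control preNeu replicate 1, and with the fit restricted to the compared libraries the counts were 3 and 4. Npm1, nucleophosmin, which carries ribosomal subunits, had 492, 623 and 605 CPM in septic preNeu, 111, 236 and 437 CPM in control preNeu and 686, 649 and 639 CPM in TpMo. Uqcrfs1, the Rieske iron-sulfur subunit of respiratory complex III, had 201, 231 and 218 CPM in septic preNeu, 113, 125 and 121 CPM in control preNeu and 249, 266 and 245 CPM in TpMo. Npm1 and Uqcrfs1 did not pass against TpMo (adjusted p = 0.618 and 0.0978) and were higher than control preNeu by 1.14 and 0.86 (adjusted p = 0.00188 and 6.76e-07), the call of Npm1 being lost with the compared libraries alone (adjusted p = 0.104).

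Glycolysis genes were mostly higher than TpMo. Of 16 members 12 were higher than TpMo and 2 lower, beside 13% and 11.3% over all genes, with a median of 0.94. In control preNeu 9 were higher and 3 lower, beside 13.8% and 14.2% over all genes. Septic over control preNeu, 9 were higher and 1 lower, beside 7.31% and 4.29% over all genes. Slc2a3, the high-affinity glucose carrier GLUT3, had 485, 395 and 372 CPM in septic preNeu, 694, 405 and 293 CPM in control preNeu and 4.23, 6.15 and 6.74 CPM in TpMo, a log2 fold change of 6.19 ± 0.46 over TpMo (adjusted p = 2.61e-11). Ldha, lactate dehydrogenase, had 2566, 2618 and 2594 CPM in septic preNeu, 1191, 1542 and 1577 CPM in control preNeu and 1069, 959 and 966 CPM in TpMo. It was higher than TpMo by 1.38 and than control preNeu by 0.85 (adjusted p = 1.77e-09 and 3.21e-05). Mitotic genes were lower than control preNeu in part and divided against TpMo. Of 25 members 3 were higher than TpMo, 6 lower and 16 did not pass, beside 13% higher and 11.3% lower over all genes, the lower count being 2 or 3 without septic preNeu replicate 2 or 3 or TpMo replicate 1. Against control preNeu 9 were lower, beside 4.29% over all genes, and 0 higher, the lower count being 5 without control preNeu replicate 1. Kif11, a spindle motor, had 545, 489 and 394 CPM in septic preNeu, 851, 852 and 671 CPM in control preNeu and 679.8, 669 and 564 CPM in TpMo. Every septic library was below every library of both other groups, but the call against TpMo (adjusted p = 0.0161) was lost without septic preNeu replicate 3 or TpMo replicate 1, with adjusted p up to 0.0926. DNA replication genes did not follow the mitotic ones. Of 24 tested 4 were higher than TpMo and 0 lower, beside 13% and 11.3% over all genes. The higher count was 1 or 2 without single libraries. Against control preNeu 6 were higher and 0 lower, beside 7.31% and 4.29% over all genes.

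**Figure D4:**
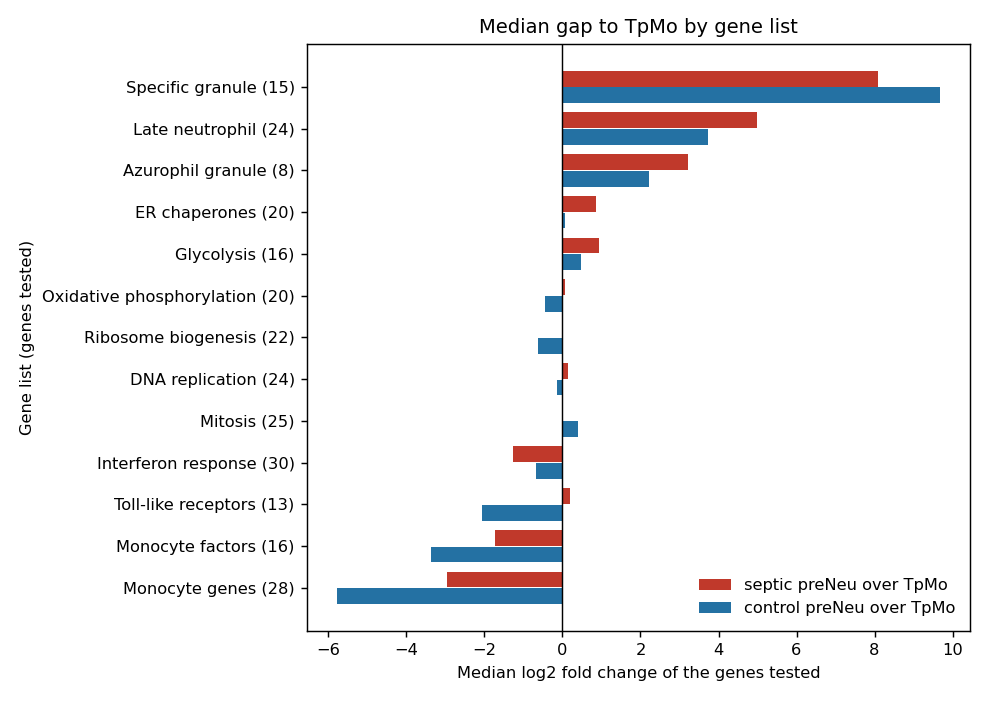
Median log2 fold change over TpMo (horizontal axis) of the tested members of 13 gene lists, in septic preNeu and in control preNeu. Each bar is a list median and the number tested is in brackets. Monocyte genes lie at -2.96 and -5.77, Toll-like receptors at 0.19 and -2.07, ribosome biogenesis genes at 0.02 and -0.63 and specific granule genes at 8.08 and 9.69, the second being 8.63 at the bounds of genes at 0.

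More interferon response genes were lower than higher in septic preNeu. Of 30 members 14 were lower than TpMo, 2 higher and 14 did not pass, beside 11.3% lower and 13% higher over all genes. Their median was -1.26, and 11 were lower in control preNeu. Irf7, an amplifier of type I interferon, had 7.22, 3.5 and 5.05 CPM in septic preNeu, 33.3, 9.86 and 12.6 CPM in control preNeu and 81.6, 62.8 and 117 CPM in TpMo. It was lower than TpMo by -4.04 ± 0.70 (adjusted p = 5.43e-05). Mx1, an antiviral GTPase, had 1.12, 0.637 and 0 CPM in septic preNeu, 0.12, 0.233 and 2.44 CPM in control preNeu and 34.5, 28.9 and 38.5 CPM in TpMo. Between septic and control preNeu 27 of the 30 did not pass, 0 were higher and 3 lower, beside 4.29% over all genes. Oasl2 and Usp18 were among those lower. The call of Usp18 (adjusted p = 0.0271) was lost without septic preNeu replicate 1 or 3 or control preNeu replicate 1, with adjusted p up to 0.594.

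Of 15 genes known to answer STAT3, the factor downstream of interleukin 6 and G-CSF, 6 were higher in septic than in control preNeu and 0 lower. Over all genes the shares were 7.31% and 4.29%. Socs3, the feedback inhibitor of STAT3, had 30, 50.5 and 37.5 CPM in septic preNeu, 1.32, 2.68 and 4.48 CPM in control preNeu and 0, 5.13 and 2.35 CPM in TpMo. It was higher than TpMo by 3.96 ± 1.07 and than control preNeu by 3.87 ± 1.09 (adjusted p = 0.00633 and 0.018), the second call being lost without septic preNeu replicate 2 or control preNeu replicate 1 or 2, with adjusted p up to 0.108. Pim1, a survival kinase, had 58, 67.2 and 76.3 CPM in septic preNeu, 10.9, 7.53 and 19.7 CPM in control preNeu and 39.7, 65.4 and 78.2 CPM in TpMo, overlapping with TpMo. Fos stood at 28.4, 32.1 and 16.1 CPM in septic preNeu, 13.4, 7.35 and 11.8 CPM in control preNeu and 420, 770 and 1062 CPM in TpMo, lower than TpMo by -4.85 ± 0.60. High Fos was shared by the monocyte-path libraries: cMoP and Ly6C-high monocytes had at least 121 CPM, and the other 24 libraries at most 33.8 CPM. The heat shock gene Hspa1a, whose near-identical copy Hspa1b can share its reads, had 2.34, 1.11 and 0.971 CPM in septic preNeu, 0.481, 0.467 and 3.05 CPM in control preNeu and 174, 220 and 230 CPM in TpMo. Whether handling of the cells bears on Fos and Hspa1a was not tested.

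Genes on which septic preNeu lay on the TpMo side of control preNeu and did not pass against TpMo numbered 332 upward and 176 downward. They passed between septic and control preNeu and between control preNeu and TpMo, toward TpMo, but not between septic preNeu and TpMo, at 20 CPM or more in control preNeu or TpMo. Predicted genes, pseudogenes and immunoglobulin and T cell receptor segments were left out. The number of genes that could qualify was not counted, so no share is given. Not passing does not show that the TpMo level was reached. The members named were those with the largest difference from control preNeu. Vcan, versican, a proteoglycan of the monocyte matrix, had 54.6, 81.7 and 47.8 CPM in septic preNeu, 0.12, 0.233 and 0 CPM in control preNeu and 71.7, 62 and 43.9 CPM in TpMo. Septic preNeu overlapped with TpMo (0.06 ± 0.58, adjusted p = 0.988) and exceeded control preNeu by 8.59 ± 1.01 (adjusted p = 1.07e-06). Its start site, printed above, held 0 of the capital matches. Ms4a4a and Ms4a6d, membrane proteins of the MS4A family, followed, Ms4a4a with 14.4, 32.8 and 15.2 CPM in septic preNeu, 0.12, 0.35 and 0 CPM in control preNeu and 29.6, 25.5 and 33.3 CPM in TpMo. Eps8, an actin regulator, had 30.1, 54.6 and 28.6 CPM in septic preNeu, 0.12, 1.05 and 0.407 CPM in control preNeu and 24.5, 44.9 and 29.4 CPM in TpMo. Pkp3, Slc2a6, Zc3h12d and Mboat1 made up the 8, with septic libraries below every TpMo library by -1.01 to -1.72 on the log2 scale.

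In the downward direction Tango6 had 10.8, 10.4 and 10.5 CPM in septic preNeu, 120.4, 136 and 85.5 CPM in control preNeu and 12.2, 9.92 and 9.92 CPM in TpMo. Septic preNeu overlapped with TpMo (-0.01 ± 0.28, adjusted p = 1) and was lower than control preNeu by -3.43 ± 0.30 (adjusted p = 8.69e-09). C1qtnf12 had 18.3, 12.6 and 17.3 CPM in septic preNeu, 146, 177 and 152 CPM in control preNeu and 19.8, 24.7 and 19.5 CPM in TpMo. Hlx, a homeobox factor, had 57, 47.1 and 41 CPM in septic preNeu, 277, 184 and 113 CPM in control preNeu and 26, 26.5 and 40 CPM in TpMo. Prss34, a protease of basophils and mast cells, Cldn1, Aldh3b3, Tmem8 and Ifi27 were the others. Cldn1 and Aldh3b3 still lay above every TpMo library, by 2.25 ± 1.14 (adjusted p = 0.164) and 1.72 ± 0.75 (adjusted p = 0.099). The calls against control preNeu were lost without single libraries for Cldn1 (adjusted p = 0.0319, up to 0.138) and Aldh3b3 (adjusted p = 0.00802, up to 0.0667).

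**Figure D5:**
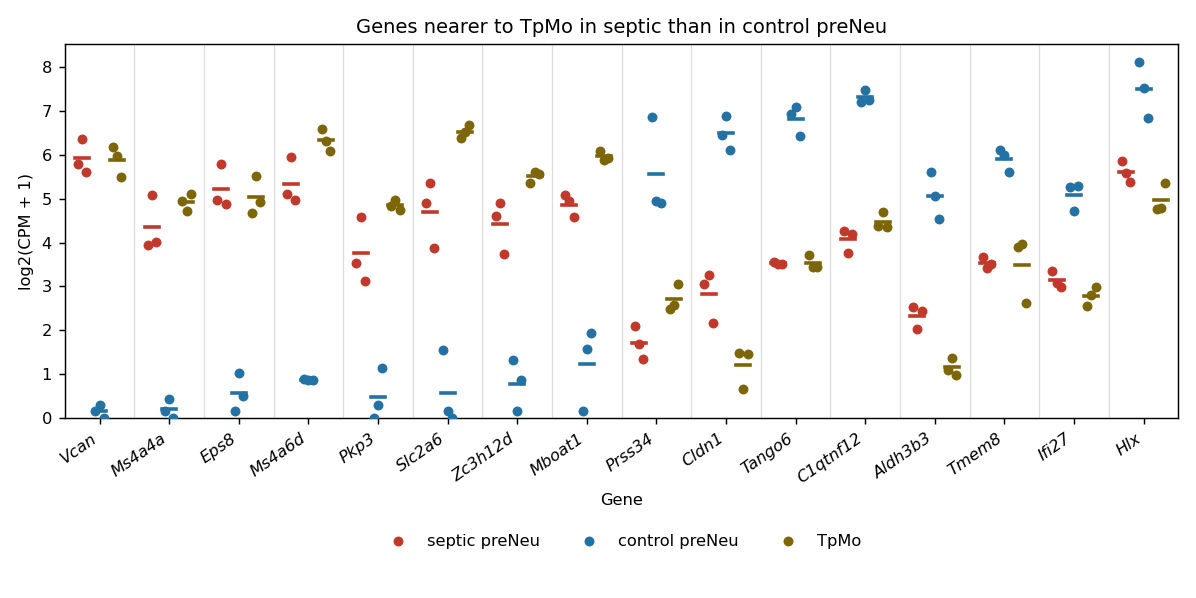
Level as log2(CPM + 1) of the 8 genes higher and the 8 genes lower in septic than in control preNeu that did not pass between septic preNeu and TpMo; each point is a library of septic preNeu (left), control preNeu (middle) or TpMo (right). Septic points of Vcan, Eps8 and Tango6 overlap those of TpMo and lie apart from control preNeu.

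Other genes moved away from both. At 20 CPM or more in septic preNeu or TpMo, 333 genes were higher and 207 lower in septic preNeu than in both other groups. The same kinds of genes were left out, and no share is given for want of the number that could qualify. Clu, the chaperone clusterin, had 141, 170 and 143 CPM in septic preNeu, 0.24, 0.35 and 3.26 CPM in control preNeu and 0.242, 0.387 and 0.0977 CPM in TpMo. It exceeded TpMo by 9.25 ± 0.88 and control preNeu by 7.59 ± 0.82 (adjusted p = 2.39e-09 and 2.18e-07). Ifitm1 had 49.4, 64.5 and 72.3 CPM in septic preNeu, 0.601, 0.35 and 0.61 CPM in control preNeu and 0.242, 0.29 and 0.489 CPM in TpMo. Svep1, an adhesion protein of the extracellular matrix, had 22.9, 48.8 and 27 CPM in septic preNeu and 0 in all 6 other libraries, at least 664-fold higher than TpMo and 446-fold higher than control preNeu against a floor of 3 counts over the group. Spint1, a serine protease inhibitor, had 28, 37.7 and 17.1 CPM in septic preNeu and 0 in the same 6, at least 594-fold and 399-fold higher, but with DESeq2 it did not pass against either (adjusted p = 0.215 and 0.288). Downward, Alcam, an adhesion molecule, had 16.2, 21.1 and 13.4 CPM in septic preNeu, 73.1, 122 and 88.3 CPM in control preNeu and 74.2, 54.4 and 70.5 CPM in TpMo. Hdac10, a deacetylase, had 15.3, 10.3 and 10.9 CPM in septic preNeu, 74.2, 66.5 and 60.6 CPM in control preNeu and 64.1, 50.2 and 48 CPM in TpMo. For both of these control preNeu and TpMo overlapped while every septic library lay below. Cd34, a progenitor antigen, had 1.63, 1.86 and 0.389 CPM in septic preNeu, 5.65, 0.467 and 36.2 CPM in control preNeu and 34.3, 43.2 and 44.3 CPM in TpMo, and its call against control preNeu was lost without control preNeu replicate 3 (adjusted p = 0.273).

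Among the genes over 20 CPM that lay farthest from TpMo, several were at or near 0 on one side. Orm1, an acute-phase glycoprotein with close paralogs, had 52.9, 60.6 and 57.9 CPM in septic preNeu, 67, 61.8 and 47 CPM in control preNeu and 0 in TpMo, at least 1090-fold higher in septic preNeu than in TpMo. Lipg, endothelial lipase, had 921, 868 and 833 CPM in septic preNeu, 20.1, 23.6 and 53.7 CPM in control preNeu and 0.363, 0.0968 and 0 CPM in TpMo, with log2 fold changes of 12.55 over TpMo and 4.79 over control preNeu (adjusted p = 2.3e-13 and 9.44e-08). Xrcc5, which encodes the Ku80 subunit of DNA repair, had 29.4, 23.9 and 29.3 CPM in septic preNeu, 7.27, 13.5 and 11.8 CPM in control preNeu and 0 in TpMo. It stood at 0 to 0.154 CPM in all 9 monocyte-path libraries and at 7.27 to 36.4 CPM in the other 24. Among those lower, Rem1, a small GTPase, had 0 CPM in septic preNeu, 0, 0.117 and 0 CPM in control preNeu and 56.2, 50.1 and 55 CPM in TpMo, at least 780-fold lower in septic preNeu than in TpMo. Stxbp6 had 0.814, 0.425 and 1.55 CPM in septic preNeu, 0, 0.117 and 0 CPM in control preNeu and 95.4, 99.3 and 110.1 CPM in TpMo. Padi2, which converts arginine to citrulline in proteins, had 2.29, 0.425 and 0 CPM in septic preNeu, 0.962, 0.467 and 4.68 CPM in control preNeu and 139.6, 112 and 120.1 CPM in TpMo.

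Markers of other cell types were measured beside these results, and most of their sums were above TpMo in septic preNeu. Over all genes 13% were higher than TpMo and 11.3% lower. Basophil and mast cell genes summed to 291, 223 and 159 CPM in septic preNeu, 823, 728 and 656 CPM in control preNeu and 14.1, 14.2 and 17 CPM in TpMo, with Cma1 at 0 in all and Hdc the bulk of the sum. Eosinophil genes, 7 of 9 of them higher than TpMo, summed to 126, 114 and 128 CPM in septic preNeu, 71.9, 92.5 and 97.9 CPM in control preNeu and 18.4, 21.1 and 24 CPM in TpMo. B and plasma cell genes summed to 77.8, 38.7 and 57.3 CPM in septic preNeu, 670.2, 374 and 1088 CPM in control preNeu and 638, 728 and 745 CPM in TpMo. Ighm, at 555 to 721 CPM in the 9 monocyte-path libraries, was the bulk of the TpMo sums. Of the 10 genes tested 1, Ighm, was lower than TpMo and 9 did not pass. Genes of macrophages, 3 of 12 of them higher than TpMo and 2 lower, summed to 598, 596 and 515 CPM in septic preNeu, 1095, 1034 and 668 CPM in control preNeu and 238, 226 and 231 CPM in TpMo, with Slc40a1 at 359 to 420.5 CPM the bulk of the septic sums. T and NK cell genes, 4 of 11 of them above the filter, summed to 241, 220 and 238 CPM in septic preNeu, 215.5, 175 and 309 CPM in control preNeu and 7.98, 5.57 and 7.67 CPM in TpMo, nearly all of it Nkg7. Stem and progenitor genes summed to 175, 168 and 152.5 CPM in septic preNeu, 449, 408 and 485.5 CPM in control preNeu and 81.6, 95.4 and 106 CPM in TpMo. Erythroid and megakaryocyte genes summed to at most 41 and 6.60 CPM in septic preNeu, 114 and 14.45 CPM in control preNeu and 23.8 and 3.26 CPM in TpMo. The part of such cells, or of monocytes among the sorted septic preNeu, in the levels of the monocyte genes was not tested.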

How the data were processed

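Deposited gene counts of 33 libraries in 11 groups of 3 were analysed. Per the labels' protocols, RNA of sorted bone marrow cells was amplified with SMART-seq v2 chemistry after addition of spike-in RNA, and libraries were sequenced as read pairs. Per the submitters' processing notes, reads were aligned with STAR to GRCm38 and counted with featureCounts; versions, strandedness and how pairs were counted were not given in the sources used here. The values are raw counts per gene as deposited, with 0 spike-in features. Among counts of 1 to 10, 76.2% were even, a pattern that counting each mate on its own would give.

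Symbols came from the annotation tables for 54723 of 54752 features. Features on X or Y (4184) were left out. All 33 libraries entered 1 fit in edgeR 4.0.16 (R 4.3.3): filterByExpr, trimmed mean of M-values scaling, robust quasi-likelihood test with 22 residual degrees of freedom, Benjamini-Hochberg adjustment over 17619 genes, threshold 0.05. The biological coefficient of variation was 0.473. Fold changes are log2, with prior count 2 for log2 CPM. On simulated counts for septic preNeu against TpMo, with 200 of 16725 genes changed, 32% of 2-fold and 82% of 4-fold changes were recovered, and 4.2% of 119 calls were false. In the data 4280 of 17619 genes passed, a far larger share, so these rates need not hold there. Distances were compared with an exact permutation test. Limma 3.58.1 and DESeq2 1.42.0 were among the alternatives.

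The members and the gene lists were chosen with earlier results of these data known. Genes were named by rule: the 10 largest separations in each direction from TpMo, the largest of each list, a panel of 23 genes, and the 8 largest shifts in each direction toward and away from TpMo relative to control preNeu, at 20 CPM or more. Predicted genes, pseudogenes and immunoglobulin and T cell receptor segments were left out of the separations and shifts. Further list members were named after their values were seen. A few list members are not reported here.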

Additional observations from a re-analysis of the deposited data

Results flagged for a closer look

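Septic and control preNeu were both set against the same TpMo libraries, and the gap to TpMo was tested for a difference between them with edgeR's quasi-likelihood test of septic over control preNeu. Of the panel genes 13 passed, and their values are log2 differences of that gap. On the monocyte side the gap was smaller in septic preNeu, by 6.74 for Fn1, 4.41 for Ccr2, 3.55 for Klf4, 3.44 for F13a1 and 2.63 for Csf1r, each higher in septic preNeu. The azurophil granule genes Prtn3 and Mpo were also higher in septic preNeu, by 1.28 and 0.52, which widened their gap to TpMo. The later neutrophil genes Ly6g, Camp, Ltf and Ngp were lower in septic preNeu, by -3.07, -1.88, -1.79 and -1.44, which narrowed it. Cxcr4, the receptor that holds cells in the marrow, and Mki67, a gene of dividing cells, were lower by -0.89 and -0.58. The calls of Klf4, Mpo, Ly6g, Ngp, Cxcr4 and Mki67 were each lost on leaving out single libraries, with adjusted p up to 0.16, 0.17, 0.156, 0.242, 0.385 and 0.291.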

How the results depend on the processing

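The counts of genes that passed kept within 1.5 times of their main value under DESeq2, limma, other size factors, other filters, X and Y genes kept, halved counts and without the shallow libraries. A test against a fold change of 1.5 passed 2305 genes for septic preNeu against TpMo, 2892 for control preNeu against TpMo, 503 for septic against control preNeu and 140 of the monocyte-path genes. It ended the calls against control preNeu of Hp, Selplg, Kif11 and Ldha (adjusted p = 0.944, 0.378, 0.4 and 0.122), and limma ended those of Prss34 and Oasl2 (0.0718 and 0.0965). With the compared libraries alone 1185 genes passed between septic and control preNeu. Leaving out single libraries gave 3442 to 3720, 4038 to 5039 and 1188 to 2537 genes in these 3 comparisons and 195 to 283 monocyte-path genes. For septic against control preNeu 1336 passed without septic preNeu replicate 2 and 1188 without control preNeu replicate 1. The difference in distance to TpMo was -0.195, ran from -0.2385 to -0.1402 without single libraries, was -0.296 over genes at 5 CPM or more and -0.0226 as 1 minus Spearman's correlation, another unit. With a prior count of 0.5 it was -0.2155 with an exact permutation p of 0.2, so septic and control values were not fully apart there. Of 262 named genes against TpMo 199 kept their call under every alternative, and of 115 between septic and control preNeu 74 did. Where the main or the alternative result passed, 0 changed direction. Some genes that passed in neither did change, such as Cebpb against TpMo, at 1.976 in the main fit and -1.376 without the shallow libraries. List counts against control preNeu and the genes beyond the naming rule were added after the data were seen. The median of all genes stayed within 0.036 of 0 under each scaling. No paired analysis was possible because the labels carry no replicate numbers. The test against a fold change of 1.5 kept the same genes and libraries and asked for a larger change. For the other counts that moved, the cause was not tested beyond the fewer genes or libraries each alternative leaves.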
